A study of Mus musculus with 4 samples.

Results

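The genes described here are 36 genes of G2 and mitosis, the phases in which a cell that has copied its DNA builds a spindle, separates its chromosomes and divides. They were taken from a list of gene names, matched to the name that the array files give each probe. The array carried 51 probes for them, of which 49 probes, for 35 genes, stood clear of background on both arrays of 1 or both groups (the scanner software's call of well above background) and were tested among 17555 genes in all (23735 of 55681 probes). The remaining gene, Aurkb, was not well above background on any array.

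RNA was measured in 32D-EpoR cells, a mouse myeloid progenitor line that depends on interleukin-3 and carries an introduced receptor for erythropoietin (Epo), the hormone of red cell production. They were grown in RPMI medium with 10% serum and 10% WEHI medium, a conditioned medium that supplies interleukin-3, and were then washed and moved to the same serum without WEHI medium. The Epo group (n = 2) was given 10 U/ml Epo, and the group without Epo (n = 2) was given none, so that both groups had lost the WEHI medium. The samples came from 2 independent experiments on cells of different passages, and how long Epo was present, or whether the line is a single clone, was not given in the sources used here.

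Passage through G2 and mitosis is driven by the kinase CDK1 with its B-type cyclins, supported by Polo and Aurora kinases. Most of the genes involved are transcribed together late in the cell cycle. Their promoters are bound by the MuvB complex through a short element called the CHR, near which CCAAT boxes often lie. MuvB acts with the activators MYBL2 and FOXM1 in cycling cells and with repressors in resting cells. Destruction of the cyclins by the anaphase-promoting complex (APC/C) then ends mitosis.

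The 4 arrays, each from 200 ng of RNA, shared 1 slide and 1 scan. Between 42.2% and 48.6% of gene spots were well above background, and no spot was saturated. The arrays correlated at 0.995 within the Epo group and 0.993 within the group without Epo, and at 0.971 to 0.976 between the groups. Of the 10 myeloid progenitor markers listed, 9 were tested, and Kit was not well above background. Alas2 among the erythroid markers was not well above background, nor were 5 of 6 lymphoid, 5 of 6 stromal, 3 of 6 macrophage and 3 of 6 mast cell markers. The summed signal of the myeloid markers was 16.91 and 17.08 with Epo, against 17.16 and 17.24 without Epo, on the log2 scale. Signals were summed before taking the log, so bright markers weigh most. Ctsg alone had 16.40 and 16.57 with Epo, against 16.72 and 16.75 without Epo. Single markers moved with the group when each array was scaled to its 75th percentile, and spike-in control probes gave a second scale. Of the myeloid markers Cebpa fell (-0.74), and of the erythroid ones Gata1 (-0.68). Cebpa and Gata1 lay at 0.0097 and 0.070 without scaling and at 0.27 and 0.33 on the spike-in scale. With the experiment as a block, 5 of the 9 tested myeloid markers were lower and 0 higher, against 23.2% and 19.9% of all genes. The 5 were Cebpa, Mpo, Spi1, Itgam and Elane. The stromal marker Pdgfrb (-2.45) and the lymphoid marker Cd3e (-1.14) fell and were the only tested genes of their lists. Of the macrophage markers Csf1r fell (-0.79; 0.22 on the spike-in scale) and Adgre1 rose (1.03), and of the 3 tested mast cell markers 0 passed (2 were lower with the experiment as a block). The summed signals were 12.12 and 12.22 with Epo against 11.83 and 11.80 without Epo for macrophage markers, and 10.743 and 10.997 with Epo against 11.075 and 11.258 without Epo for mast cell markers. Of the macrophage sum, Adgre1 alone had 11.70 and 11.82 with Epo, against 10.73 and 10.74 without Epo. The part of these markers in the results was not tested. In RNA from a whole culture, fewer cells in mitosis and less of a transcript per cell cannot be told apart.

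Levels are log2 processed signals, scaled so that the 75th percentile over gene spots is equal on every array, and a change is the level with Epo minus the level without Epo. This scale matters for the direction of most of the changes that follow. Before scaling, the 75th percentile was 347 and 454 intensity units with Epo, against 224 and 250 without Epo, a difference of 0.75 on the log2 scale. The 8 detected spike-in control probes of the platform, designed to read RNA added in known amounts, differed the other way, by -0.26 on average (range -0.35 to 0.041). The labels do not mention spike-in RNA. The file headers name spike-in use, and the 8 probes gave graded signals, in Epo replicate 1 from 5.85 to 18.42. The labels do not say whether equal amounts were added to each sample. A change on the scale of the 75th percentile is therefore 0.75 higher without any scaling and 1.01 higher on the scale of the spike-in controls, for every gene alike. The median change of all genes was -0.062, 0.68 and 0.95 on these 3 scales. The order of the genes and the distance between any pair of them are the same on all 3.

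On the scale of the 75th percentile, 8 of the 35 tested mitosis genes fell with Epo and 0 rose (limma, adjusted p under 0.05), whereas 0 fell and 3 rose without scaling, and 0 fell and 24 rose on the spike-in scale. The genes that fell were the transcription factor Foxm1, the cyclin F gene Ccnf, the kinetochore gene Ndc80, the proliferation marker Mki67, the spindle gene Nusap1, the kinesins Kif4 and Kif2c, and Incenp of the chromosomal passenger complex. Their falls ran from 1.37-fold (Incenp) to 1.94-fold (Foxm1). Of all genes tested, 14.3% fell and 13.1% rose at the same threshold; 2.07% fell and 46.9% rose without scaling, and 1.37% fell and 75.3% rose on the spike-in scale. The 8 falls are 22.9% of the mitosis genes. Counts on the 3 scales depend on the error of each fit as well as on the shift. The median SE over all genes was 0.14 on the scale of the 75th percentile, 0.32 without scaling and 0.25 on the spike-in scale. Without scaling every mitosis gene had the same SE of 0.32. A p-value of that fit therefore follows the size of the change alone, not the spread of a gene's own replicates.

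At an unadjusted p under 0.05, 17 of the 35 mitosis genes were lower and 1 was higher, against 23.5% and 19.2% of all genes. With the experiment number as a block, 15 fell and 0 rose, against 23.2% and 19.9% of all genes; the additional calls were Ect2, Cenpe, Spc25, Prc1, Aurka, Bub1 and Racgap1. The number of falls was 15 with a percentile of the detected probes alone (20.8% of all genes fell) and 14 under quantile normalization (13.1% fell). Relative to the median of each array 2 fell and 2 rose, against 6.56% and 27.9% of all genes. With normexp background correction 9 fell and 1 rose, against 20.7% and 15.8%. Keeping probes well above background on all arrays gave 10 falls (16.9% of all genes), and averaging the probes of a gene gave 6 (14.4%). With 1 array left out and the lone array of its group assumed to vary like the other group, the falls numbered 0 without Epo replicate 1 (6.69% of all genes), 1 without Epo replicate 2 (7.04%), 3 without no-Epo replicate 1 (11.1%) and 2 without no-Epo replicate 2 (9.18%). Foxm1 kept its call in 3 of these 4 fits.

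**Figure D1:**
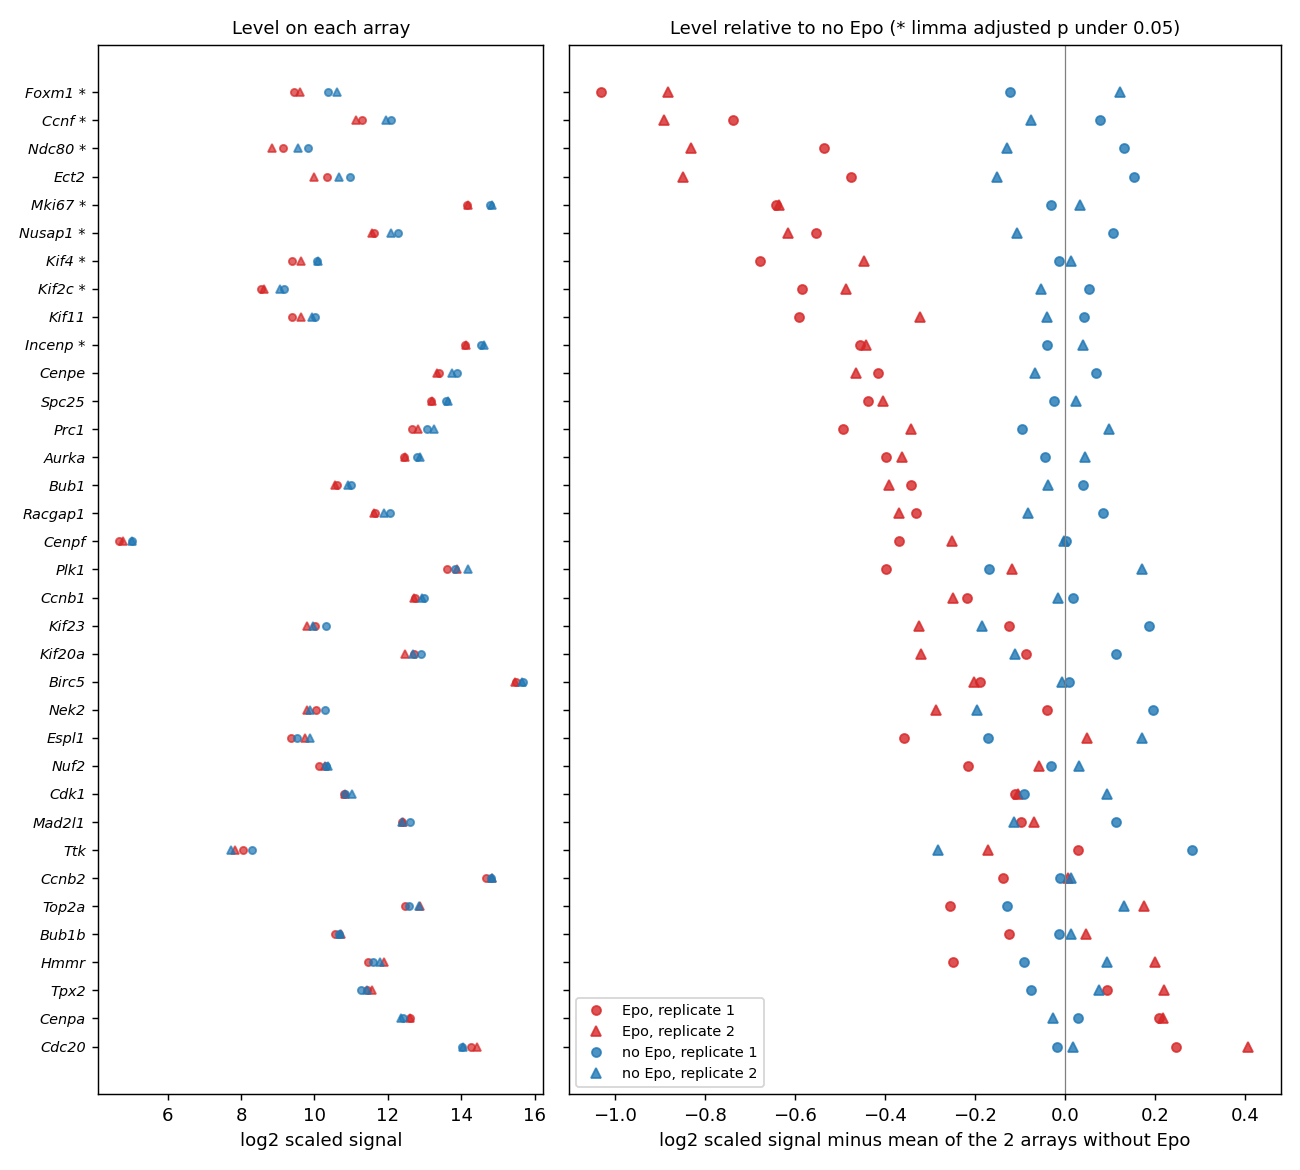
Levels of the 35 tested mitosis genes on each array (left, log2 scaled signal) and the same levels minus the mean of the 2 arrays without Epo (right, log2), with genes in order of change and the 8 that fell on the scale of the 75th percentile marked by a star. In the right panel the mean of the 2 Epo points lies farthest left for Foxm1 and farthest right for Cdc20. The order of the genes holds on every linear scale, but the zero line does not. On the spike-in scale all 35 genes lie above 0.

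Over the 35 genes the median change was -0.26 on the scale of the 75th percentile, 0.49 without scaling and 0.75 on the spike-in scale, in each case 0.20 below that of all genes (a difference of -0.196). On every linear scale 29 of the 35 lay below the median change of all genes and 6 above it. Below the lower quartile of all changes lay 13 of the 35 and above the upper quartile lay 1. The quartiles of the mitosis genes were -0.45 and -0.096, against -0.39 and 0.31 for all genes, and none of the 35 changed by more than 1 on the log2 scale. The distance to all genes was -0.267 under quantile normalization and -0.075 with normexp background correction, and it was 0.16 when dim probes were kept, where the median of all genes was -0.44.

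The levels of both Epo arrays lay below those of both arrays without Epo for 21 genes and above them for 3, and the groups overlapped for the other 11. Among all genes the groups were separated in the same way for 38.4% (lower) and 30.4% (higher). Within the experiments the median change was -0.31 for replicate 1 and -0.25 for replicate 2, and 27 genes were below 0 in both and 3 above 0 in both. The signal of 31 of the 35 genes lay above that of the median gene. Changes were set beside those of genes of like signal, since the median change of all genes varied with signal. At a log2 level of 8 to 10 the 6 mitosis genes had a median of -0.50 against -0.022 for all genes, at 10 to 12 the 12 genes had -0.29 against 0.040, and at 12 to 14 the 10 genes had -0.25 against 0.043. Above 14 the median of the 5 genes was -0.197 against -0.189, with single genes from Mki67 at -0.64 to Cdc20 at 0.33. The falls numbered 3 of 6 at 8 to 10 (15.5% of all genes of that signal), 3 of 12 at 10 to 12 (11.2%), 0 of 10 at 12 to 14 (7.19%) and 2 of 5 above 14 (8.97%).

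**Figure D2:**
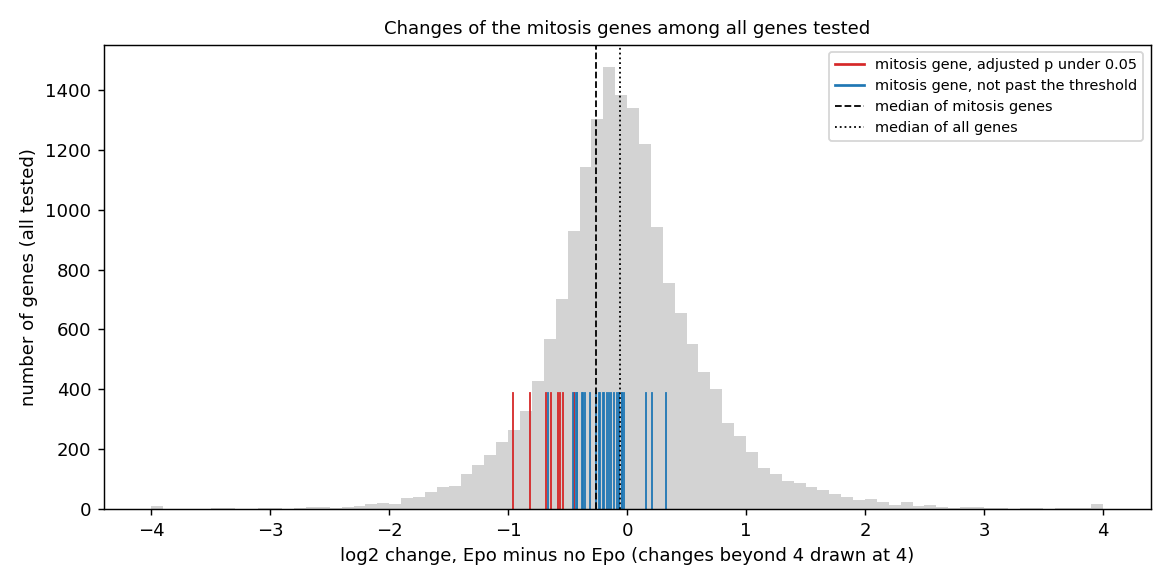
Histogram of the log2 change with Epo of all 17555 genes on the scale of the 75th percentile, with the 35 mitosis genes as vertical lines (red for the 8 that fell, blue for the others). The dashed line marks the median of the mitosis genes (-0.26) and the dotted line that of all genes (-0.062); without scaling both medians are above 0 (0.49 and 0.68).

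**Figure D3:**
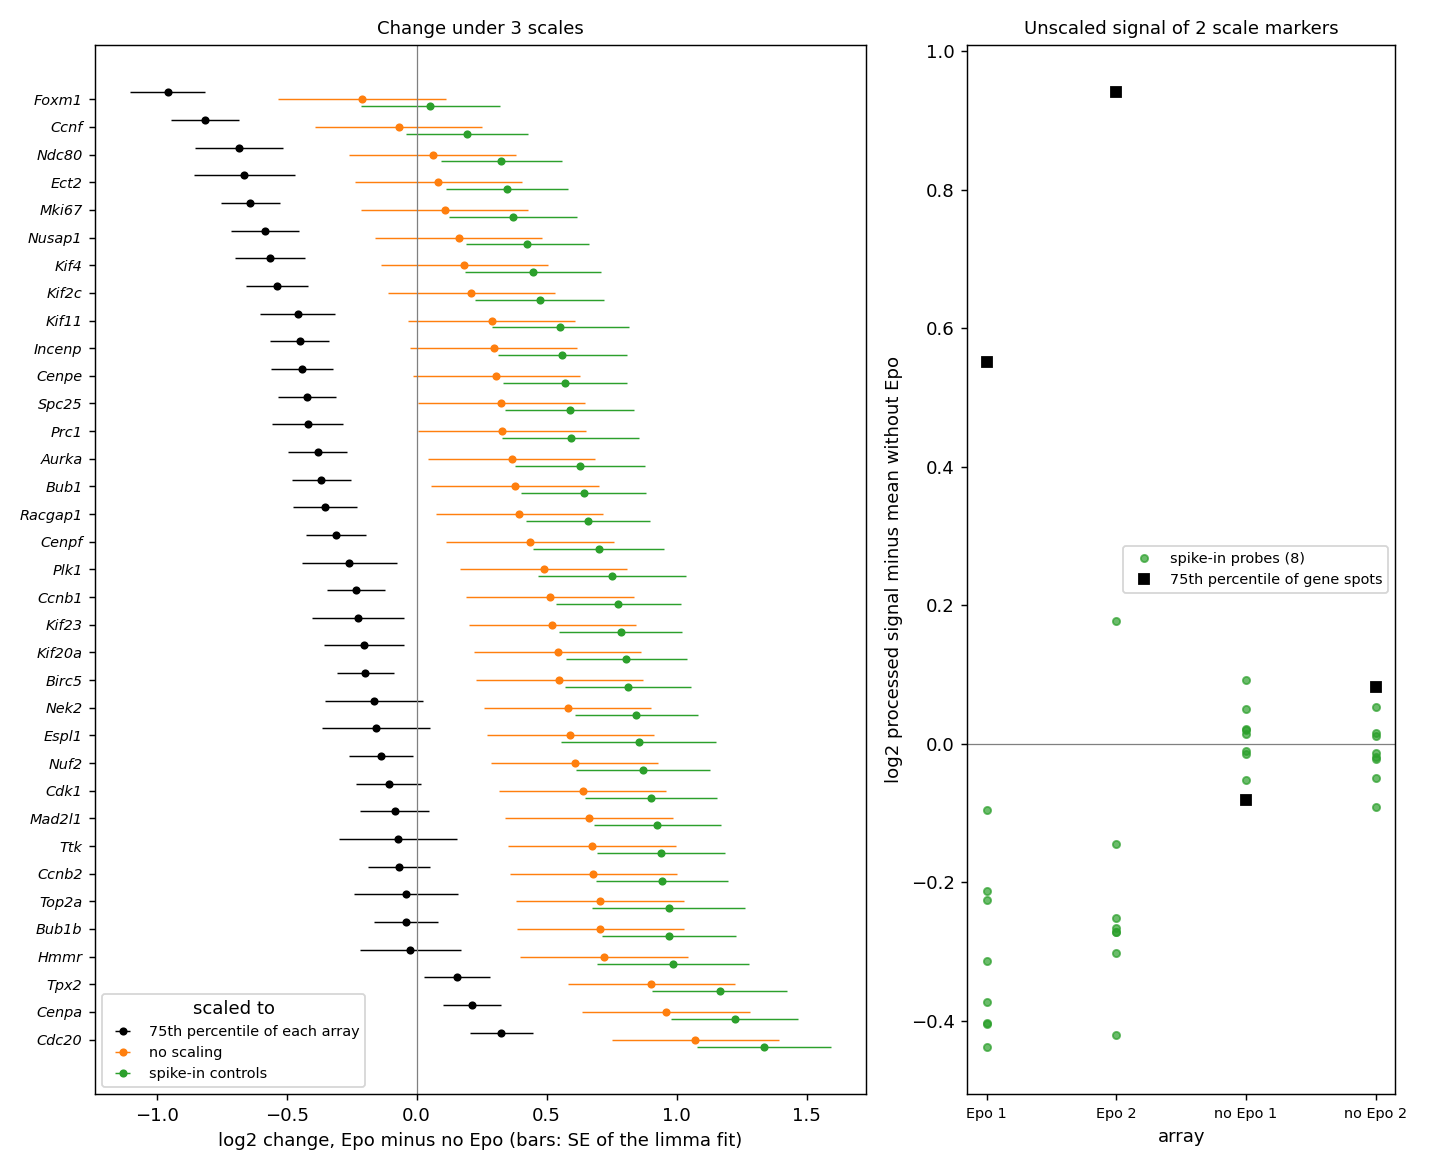
Left, log2 change of each mitosis gene with its SE under 3 scales; right, log2 signal of the 75th percentile and of the 8 spike-in probes on each array minus their mean without Epo. The 3 sets of points on the left keep the same order, while Mki67, for example, lies at -0.64, 0.11 and 0.37.

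Promoter sequences were examined because mitosis genes are known to share regulators. Of the 35 tested genes, 31 had a RefSeq window (GRCm38.p6, 250 bases before to 50 bases after the annotated start), and Foxm1, Incenp, Tpx2 and Kif20a had none. Windows were searched on both strands for the CHR letters TTTGAA or TTCGAA, for CCAAT and for the E2F forms TTTCCCGC and TTTGGCGC; no printed match overlaps another. The windows of the B-type cyclins, of both falling genes with the lowest changes that have one, and of the genes with the highest changes are given with matches in capitals, in the direction of transcription.
Ccnb1 (chr13:100786437-100786736, minus strand): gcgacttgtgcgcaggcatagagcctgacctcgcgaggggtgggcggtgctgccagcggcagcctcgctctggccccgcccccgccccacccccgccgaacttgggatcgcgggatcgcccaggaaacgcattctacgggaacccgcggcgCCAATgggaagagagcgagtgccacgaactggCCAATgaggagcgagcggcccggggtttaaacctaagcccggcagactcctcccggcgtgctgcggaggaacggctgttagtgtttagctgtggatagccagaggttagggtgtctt
Ccnb2 (chr9:70421505-70421804, minus strand): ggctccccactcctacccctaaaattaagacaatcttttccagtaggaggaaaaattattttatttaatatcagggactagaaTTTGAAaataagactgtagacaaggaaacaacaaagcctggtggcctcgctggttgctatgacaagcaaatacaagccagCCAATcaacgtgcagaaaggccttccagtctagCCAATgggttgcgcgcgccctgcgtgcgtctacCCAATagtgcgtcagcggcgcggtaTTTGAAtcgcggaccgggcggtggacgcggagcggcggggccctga
Ccnf (chr17:24251360-24251659, minus strand): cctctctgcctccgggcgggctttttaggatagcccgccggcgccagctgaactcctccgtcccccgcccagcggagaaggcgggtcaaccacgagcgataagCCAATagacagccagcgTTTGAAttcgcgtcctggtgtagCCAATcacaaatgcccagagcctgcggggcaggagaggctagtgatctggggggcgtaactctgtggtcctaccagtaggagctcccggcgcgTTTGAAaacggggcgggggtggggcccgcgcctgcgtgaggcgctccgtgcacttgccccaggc
Ndc80 (chr17:71526808-71527107, minus strand): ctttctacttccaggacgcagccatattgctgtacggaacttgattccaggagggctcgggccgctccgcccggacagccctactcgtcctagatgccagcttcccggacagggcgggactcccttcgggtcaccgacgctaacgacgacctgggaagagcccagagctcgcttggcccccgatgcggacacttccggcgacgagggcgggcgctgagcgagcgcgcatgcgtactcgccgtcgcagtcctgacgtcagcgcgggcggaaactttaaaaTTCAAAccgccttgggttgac
Cdc20 (chr4:118437294-118437593, minus strand): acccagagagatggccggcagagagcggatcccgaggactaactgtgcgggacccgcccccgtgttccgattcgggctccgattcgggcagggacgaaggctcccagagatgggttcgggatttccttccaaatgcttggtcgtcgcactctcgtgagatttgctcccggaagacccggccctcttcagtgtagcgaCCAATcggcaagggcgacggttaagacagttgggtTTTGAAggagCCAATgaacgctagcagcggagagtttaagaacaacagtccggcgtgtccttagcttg
Cenpa (chr5:30666636-30666935, plus strand): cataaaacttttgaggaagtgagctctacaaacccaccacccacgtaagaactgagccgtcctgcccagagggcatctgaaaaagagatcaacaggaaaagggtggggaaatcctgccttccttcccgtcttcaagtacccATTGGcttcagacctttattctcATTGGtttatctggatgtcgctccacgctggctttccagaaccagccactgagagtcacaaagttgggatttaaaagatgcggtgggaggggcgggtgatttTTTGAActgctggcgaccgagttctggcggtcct

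The CHR letters stood in 24 of the 31 windows (77.4%), against 19.4% of the windows of 27025 genes, and within 50 bases of the start in 22 (71.0%, against 5.29%). CCAAT stood in 25 windows (80.6%, against 37.9%) and at least 2 copies in 17 (54.8%, against 12.2%). Both kinds of letters stood in 22 windows (71.0%, against 7.70%), and in 21 of these the last CHR match lay past the last CCAAT; Cdc20 was the exception. The E2F forms stood in 0 of 31 windows, against 1.63% of all. In Ccnb2, for example, CCAAT stood at -87, -54 and -21 and TTTGAA at -167 and 5 from the start. In Ndc80 the only match was a CHR on the other strand at 30, and in Ccnb1 only CCAAT matched, at -99 and -67. Birc5, Mad2l1, Nuf2 and Nusap1 held neither kind of letters in this window.

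Genes that fell and genes that did not both held these letters. Among the 6 falling genes with a window, 5 held CHR letters and 3 held CCAAT. Among the 25 others, 19 and 22 did. Within 50 bases of the start, CHR letters stood in 3 of the 6 and in 19 of the 25. CCAAT stood there in 1 of the 6 and in 17 of the 25. Whether these shares differ was not tested. Cdc20 and Cenpa, with the highest changes, held both, as did Ccnf, with one of the lowest. A match of letters is not a measurement of binding.

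**Figure D4:**
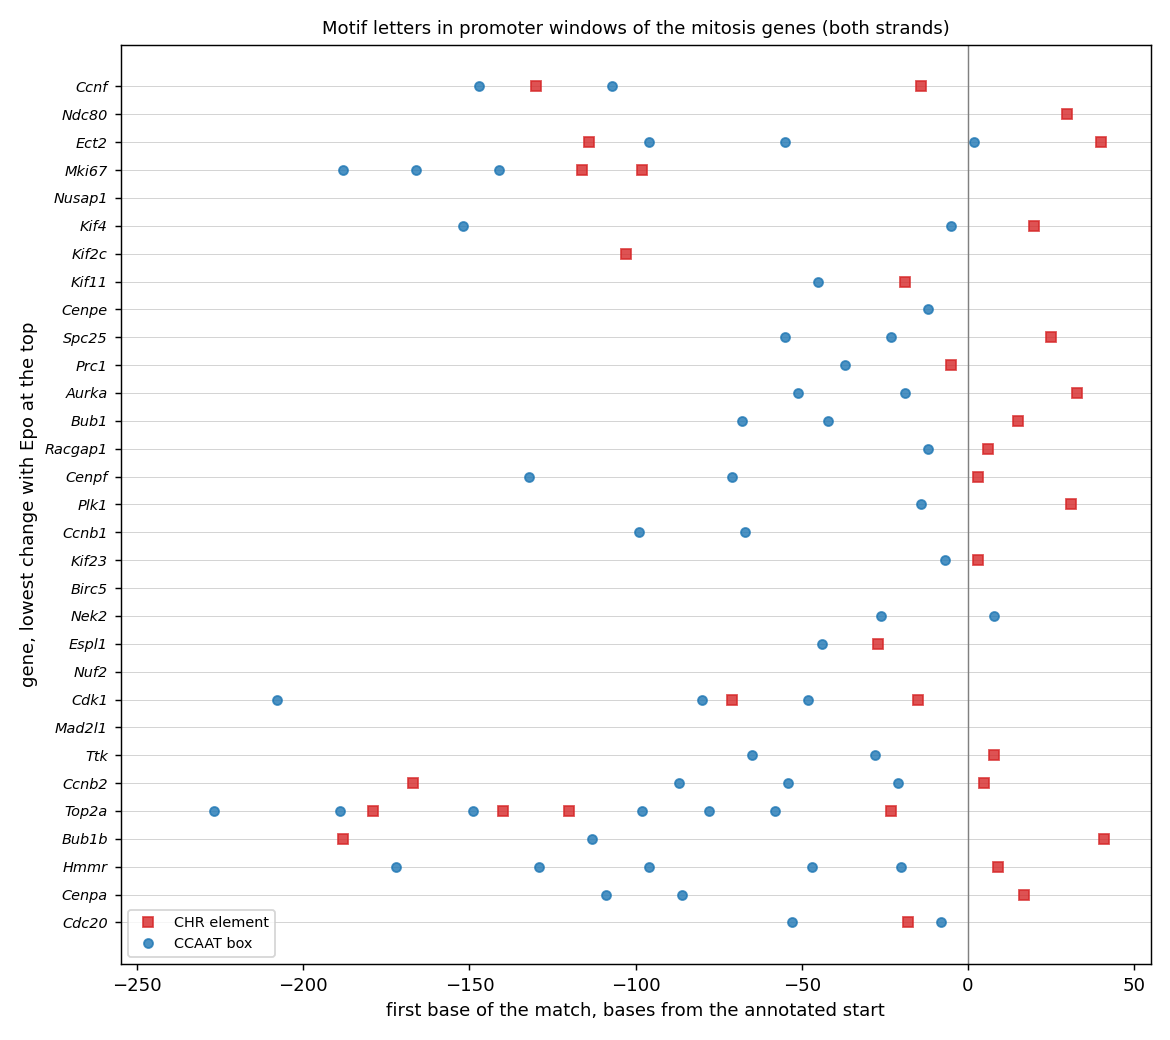
Position of the first base of each CHR (square) and CCAAT (circle) match relative to the annotated start, for the 31 mitosis genes with a window, in order of change on the scale of the 75th percentile (lowest at the top). CHR matches gather within 50 bases of the start, in 22 genes, mostly past the CCAAT matches. These 22 are 3 of the 6 falling genes and 19 of the 25 others.

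Genes of mitotic entry had a median change of -0.23 on the scale of the 75th percentile (0.51 without scaling and 0.78 on the spike-in scale), and 2 of 7 fell, Foxm1 and Ccnf. Foxm1 encodes the transcription factor that activates many of the other genes of the list. Its levels were 9.45 and 9.60 with Epo, against 10.36 and 10.61 without Epo. The Epo arrays lay well below the others, and the change of -0.96 ± 0.14 (SE; limma adjusted p 0.0150) was the lowest of the 35. It was -0.21 without scaling and 0.053 on the spike-in scale, neither of which passed the threshold. A second Foxm1 probe, dimmer than the first, gave -0.72 ± 0.24 (SE; adjusted p 0.0870 among all probes).

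Ccnf, the F-box cyclin that marks substrates for destruction in G2, had levels of 11.28 and 11.13 with Epo, against 12.10 and 11.95 without Epo. The groups were separated, with a change of -0.81 ± 0.13 (SE; adjusted p 0.0171), and the difference was nearly equal in both experiments (-0.815 in each). Without scaling the change was -0.069 and on the spike-in scale 0.195.

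The central kinase and the B-type cyclins did not pass the threshold. Cdk1 had levels of 10.82 and 10.82 with Epo, against 10.84 and 11.02 without Epo. The arrays of experiment 1 were almost level, and the change was -0.11 ± 0.13 (SE; adjusted p 0.554). Its second detected probe gave -0.20 ± 0.42. Ccnb2, a B-type cyclin that activates CDK1, had 14.69 and 14.83 with Epo, against 14.82 and 14.84 without Epo. The groups overlapped (change -0.066 ± 0.12, adjusted p 0.706).

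Plk1, the Polo kinase that promotes entry and spindle assembly, had 13.62 and 13.89 with Epo, against 13.84 and 14.18 without Epo. The experiments differed more than the groups, which overlapped (change -0.26 ± 0.18, adjusted p 0.337). The centrosome kinase gene Nek2 also overlapped between groups, with a change of -0.16.

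The other B-type cyclin gene, Ccnb1, was read by 3 probes that did not move together. The first 30 of the 60 bases of each are given to show that they read separate stretches of the transcript.
Ccnb1 probe A_55_P2065671: gccacctggaaaagaatcctgtctcatttg
Ccnb1 probe A_55_P1952256: tatgaggagatgtaccctccagaaataggt
Ccnb1 probe A_55_P2128668: tgagtgatgtagacgcagatgatggagctg
The probe used for the gene (mm9 chr13:101548722-101548781, minus strand) had 12.74 and 12.71 with Epo, against 12.98 and 12.95 without Epo, and its change was -0.23 ± 0.11 (SE; adjusted p 0.180). The groups did not overlap for this probe, and the difference did not pass the threshold. The probe at chr13:101551224-101551283 had 10.04 and 9.94 with Epo, against 9.91 and 9.65 without Epo (0.21 ± 0.15). The probe at chr13:101553449-101553508 gave 0.13 ± 0.15, so the 3 probes spanned 0 on the scale of the 75th percentile and lay above it without scaling (0.51, 0.96 and 0.88).

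The Aurora kinases and the passenger complex, which corrects faulty attachments of chromosomes to the spindle, had a median change of -0.29 over 4 tested genes (0.46 without scaling and 0.72 on the spike-in scale), and 1 fell. Aurkb, the kinase of the complex, had signals of 2.21 and 1.38 with Epo, against 2.66 and 2.68 without Epo, none of them well above background. Its single probe therefore gives no level in either group. Birc5, the survivin subunit, gave the brightest signal of the 35 genes, 15.49 and 15.47 with Epo against 15.68 and 15.67 without Epo. The replicates were close to each other and the groups did not overlap, but the change of -0.20 ± 0.11 did not pass the threshold (adjusted p 0.240), and 2 further probes gave -0.17 and -0.20. Aurka, the kinase of the spindle poles, had a change of -0.38 ± 0.11 (adjusted p 0.0706, and 0.0362 with the experiment as a block).

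Incenp, the scaffold of the passenger complex, was read by 2 probes that share 45 of their 60 bases and are shifted by 15 bases. The first 30 bases of each show the overlap, with shared bases in capitals.
Incenp probe A_55_P2028054: aggttgagcactgatGGCTCTGTAGGCAGT
Incenp probe A_55_P1978201: GGCTCTGTAGGCAGTACTCTGTAAATAAAT
The first probe (mm9 chr19:9946893-9946952, minus strand) had 14.12 and 14.13 with Epo, against 14.53 and 14.61 without Epo. The groups were separated, and the gene fell by 0.45 ± 0.11 on the log2 scale of the 75th percentile (SE; adjusted p 0.0475), while its change was 0.30 without scaling and 0.56 on the spike-in scale. The second probe (chr19:9946878-9946937) had 13.49 and 13.56 with Epo, against 13.95 and 13.05 without Epo. Only no-Epo replicate 2 departed from the pattern of the first probe, and it took the change to 0.028 ± 0.32. Averaging the probes ended the call (-0.21, adjusted p 0.406).

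Tpx2, which activates Aurora A on spindle microtubules, was 1 of the 3 genes with a change above 0. Its 2 probes, of which the first 30 bases are shown, read stretches on the plus strand of mm9 chromosome 2 and disagreed in sign.
Tpx2 probe A_51_P369200: cgccatgtttggaaacacacctgataacta
Tpx2 probe A_55_P2003576: gcccagtgcaaaggcatgtatttcaactta
The first (chr2:152719476-152719535) had 11.45 and 11.57 with Epo, against 11.28 and 11.43 without Epo. The Epo arrays were slightly higher, and the change was 0.16 ± 0.13 (SE; adjusted p 0.402). The dimmer second probe (chr2:152720285-152720344) had 7.55 and 7.59 with Epo, against 7.91 and 7.44 without Epo, and its change was -0.10 ± 0.20. The groups overlapped there.

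**Figure D5:**
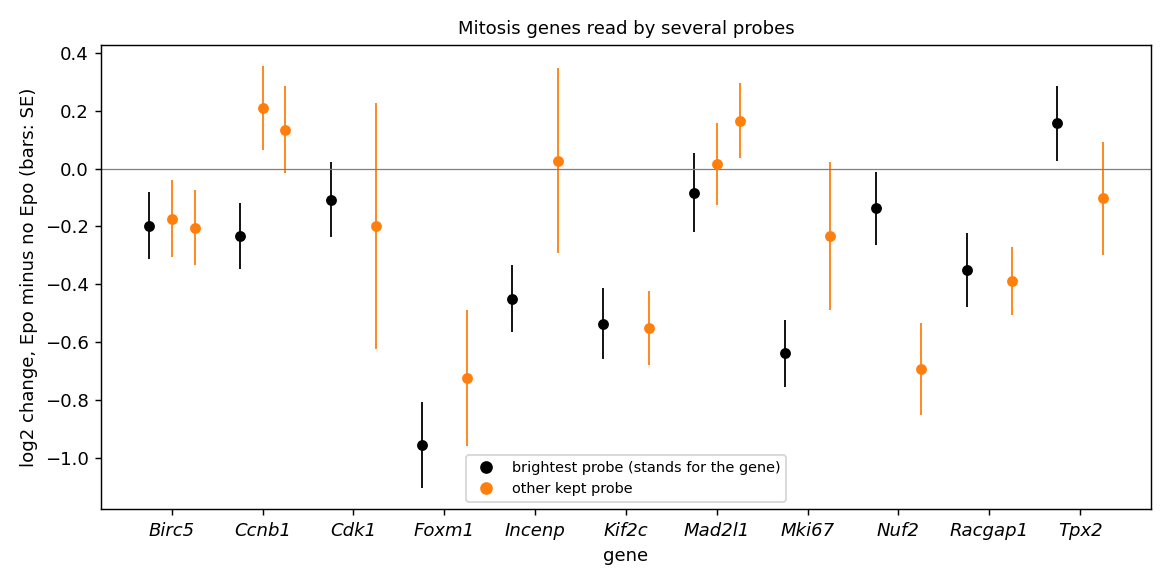
Log2 change with its SE, on the scale of the 75th percentile, of every detected probe of the 11 mitosis genes read by more than 1 probe; black points stand for the gene and orange points are its other probes. The probes of Birc5, Kif2c and Racgap1 lie close together, while those of Ccnb1, Incenp, Mad2l1 and Tpx2 lie on both sides of 0 on this scale.

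Among the genes of the spindle checkpoint, which delays anaphase until all chromosomes are attached, and of its target Cdc20, 0 of 5 passed the threshold. The median was -0.072 on the scale of the 75th percentile, the nearest to 0 of the groups, and 0.67 without scaling and 0.94 on the spike-in scale. Cdc20, the activator of the APC/C, had the highest change of all 35. Its levels were 14.28 and 14.44 with Epo, against 14.02 and 14.05 without Epo. Both Epo arrays lay above both others, with a change of 0.33 ± 0.12 (SE; adjusted p 0.115, and 0.0553 with the block). It passed the threshold without scaling (1.07, adjusted p 0.00345), on the spike-in scale (1.34) and with normexp background correction (0.51, adjusted p 0.0322). Foxm1 and Cdc20 thus moved apart by 1.28 on the log2 scale, a distance no linear scale alters.

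The checkpoint kinase gene Bub1 had a change of -0.37 ± 0.11 (adjusted p 0.0761, and 0.0372 with the block). Bub1b, which encodes the inhibitor BUBR1, and the kinase gene Ttk overlapped between groups, with changes of -0.040 and -0.072. Ttk was among the 3 dimmest, at 8.04 and 7.84 with Epo against 8.30 and 7.73 without Epo. Mad2l1, the checkpoint protein that binds CDC20, had 3 probes, and the first 30 bases of each are shown because their changes differed in sign.
Mad2l1 probe A_55_P2133255: cgaaatgcagcagtaagacacatttctctt
Mad2l1 probe A_55_P2179296: agagaggcagggaggacagctttactattc
Mad2l1 probe A_55_P2138333: tgtgtgttattgttccatttcttgggttct
The first (mm9 chr6:66490836-66490895, plus strand) had 12.40 and 12.43 with Epo, against 12.61 and 12.38 without Epo, with a change of -0.084 ± 0.13 (SE; adjusted p 0.667). The groups overlapped. The others (chr6:66490355-66490414 and chr6:66490067-66490126) gave 0.015 ± 0.14 and 0.17 ± 0.13, and none of the 3 passed the threshold.

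At the kinetochore, the structure that holds chromosomes to microtubules, 1 of 6 genes fell (3 with the block), with a median of -0.37 on the scale of the 75th percentile, 0.38 without scaling and 0.64 on the spike-in scale. Ndc80, the microtubule-binding subunit that gives its name to the NDC80 complex, had 9.15 and 8.86 with Epo, against 9.82 and 9.56 without Epo. Both groups spread by a similar amount between experiments, without overlap, and the change was -0.68 ± 0.17 (SE; adjusted p 0.0465, and 0.0159 with the block). It was 0.062 without scaling and 0.33 on the spike-in scale. Spc25, of the same complex, had a change of -0.42 ± 0.11 (adjusted p 0.0533, and 0.0299 with the block).

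Nuf2, the direct partner of Ndc80, was read by 2 probes that differed by 0.56. They lie on the minus strand of mm9 chromosome 1 and begin as follows.
Nuf2 probe A_55_P2076048: atctttgtaaacttgaaaagtgctctggag
Nuf2 probe A_55_P2174704: ccctacatatctgattgctgttgtttaggt
The brighter probe (chr1:171428989-171429048) had 10.13 and 10.28 with Epo, against 10.31 and 10.38 without Epo. Its change was -0.14 ± 0.12 (SE; adjusted p 0.442). The dimmer probe (chr1:171428269-171428328) had 7.33 and 7.65 with Epo, against 8.13 and 8.24 without Epo, and its change of -0.69 ± 0.16 passed the threshold among all probes (adjusted p 0.0395; 0.052 without scaling). Which of them follows the gene was not tested.

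Cenpe, a kinesin of the kinetochore, had a change of -0.44 ± 0.12 (adjusted p 0.0565, and 0.0307 with the block). Cenpf was the dimmest of the 35, at 4.66 and 4.78 with Epo against 5.03 and 5.03 without Epo, close to the lowest values well above background, which lay between 3.24 (Epo replicate 2) and 4.62 (no-Epo replicate 1). Its change of -0.31 did not pass. Cenpa, the histone variant that marks centromeres, had a change above 0, unlike the other 5 of its group. It had 12.61 and 12.62 with Epo, against 12.43 and 12.37 without Epo. Replicates were nearly equal and the Epo arrays higher, with a change of 0.21 ± 0.11 (SE; adjusted p 0.215) that passed without scaling (0.96, adjusted p 0.00923) and on the spike-in scale (1.22).

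Of 5 kinesins, the motors that build the spindle and its midzone, 2 fell, and the median of -0.46 was the lowest of the groups on the scale of the 75th percentile (0.29 without scaling and 0.55 on the spike-in scale). Kif4, a motor of chromosome arms and the midzone, had 9.40 and 9.63 with Epo, against 10.07 and 10.09 without Epo. The groups were separated, with a change of -0.56 ± 0.13 (SE; adjusted p 0.0419; 0.18 without scaling and 0.45 on the spike-in scale). Kif2c, which takes microtubules apart at centromeres, had 8.53 and 8.63 with Epo, against 9.17 and 9.07 without Epo. Its change was -0.54 ± 0.12 (SE; adjusted p 0.0360; 0.21 without scaling and 0.47 on the spike-in scale), and a second probe gave -0.55. Both probes had separated groups, and the signal was the third dimmest of the list.

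Kif11, the motor that pushes spindle poles apart, had a change of -0.46 ± 0.14 that did not pass (adjusted p 0.0786, and 0.0684 with the block). Kif23 and Kif20a, motors of cytokinesis, had changes of -0.22 and -0.20, and their groups overlapped.

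Among genes of spindle assembly and cytokinesis 1 of 5 fell and 4 did so with the block, with a median of -0.42 on the scale of the 75th percentile (0.33 without scaling and 0.59 on the spike-in scale). Nusap1, which bundles microtubules near chromosomes, had 11.63 and 11.57 with Epo, against 12.29 and 12.08 without Epo. Its Epo arrays agreed closely and lay below both others, with a change of -0.58 ± 0.13 (SE; adjusted p 0.0371; 0.16 without scaling and 0.43 on the spike-in scale). Ect2, the exchange factor that activates RhoA for cleavage, had 10.35 and 9.98 with Epo, against 10.98 and 10.67 without Epo. Experiment 2 was lower than experiment 1 in both groups, and the change of -0.66 ± 0.19 (SE) had an adjusted p of 0.0663, and 0.0171 with the block.

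Racgap1, the partner of Ect2 at the midzone, had a change of -0.35 ± 0.12 (adjusted p 0.100, and 0.0498 with the block), and its second probe gave -0.39. Prc1, which crosslinks midzone microtubules, had -0.42 ± 0.14 (adjusted p 0.0855, and 0.0308 with the block). Hmmr, a spindle protein and hyaluronan receptor, lay at -0.025 with overlapping groups.

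Of the 3 genes that act on chromosomes themselves 1 fell, with a median of -0.16 on the scale of the 75th percentile (0.59 without scaling and 0.85 on the spike-in scale). Mki67, which coats mitotic chromosomes and is used as a marker of proliferation, had 14.17 and 14.18 with Epo, against 14.78 and 14.84 without Epo. The groups were far apart relative to the replicates, and the change was -0.64 ± 0.11 (SE; adjusted p 0.0206), while it was 0.11 without scaling and 0.37 on the spike-in scale. A second probe had 14.09 and 14.23 with Epo, against 14.73 and 14.05 without Epo. As with the second Incenp probe, no-Epo replicate 2 was the low one, and this probe gave -0.23 ± 0.26. The average of both probes was not called (-0.44, adjusted p 0.0954).

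Top2a, the topoisomerase that untangles sister chromatids, had 12.46 and 12.89 with Epo, against 12.58 and 12.84 without Epo. The experiments differed and the groups overlapped (change -0.040 ± 0.20, adjusted p 0.893). Espl1, the protease that opens cohesin, also overlapped, with a change of -0.16. With Birc5, Ccnb2 and Mki67 gave the brightest signals of the list, but signals of different probes give no order of transcript levels.

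Further genes of mitosis, from 6 lists that hold none of the genes above, were read from the same fit. Of 111 tested, 26 fell and 2 rose on the scale of the 75th percentile (47 and 6 with the block, 0 and 24 without scaling, 0 and 72 on the spike-in scale), and their median was -0.29. Of all genes 14.3% fell and 13.1% rose (23.2% and 19.9% with the block, 2.07% and 46.9% without scaling, 1.37% and 75.3% on the spike-in scale), which is also the background of each list below. With 1 array left out, fewer falls passed, both among these genes and among all genes. Their median change was then -0.29 without Epo replicate 1 and -0.29 without Epo replicate 2. It was -0.28 without no-Epo replicate 1 and -0.33 without no-Epo replicate 2. The medians of all genes in the same fits were -0.064, -0.056, -0.062 and -0.060. The highest change that passed was that of Cdc25a, the phosphatase that activates cyclin-dependent kinases, at 12.28 and 12.31 with Epo against 11.29 and 11.21 without Epo. It rose by 1.04 ± 0.11 (adjusted p 0.00808), in a list of 17 entry and MuvB genes where 4 fell. Both a brake on CDK1 and a supporter of it were among these falls, the inhibitory kinase Wee1 (-0.88) and Mastl (-1.18), which holds back the phosphatase that undoes CDK1's work.

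Of 15 APC/C genes 2 fell, its inhibitor Fbxo5 (-1.15 ± 0.12) and its subunit Anapc2 (-0.60). Of 8 condensin genes 2 fell, Ncapg2 (-0.999) and Ncaph (-0.69). Of 13 genes of cohesion and sister separation 3 fell and 1 rose, with Sgo2a, a protector of cohesin, at -0.83, the cohesin stabiliser Cdca5 at -0.75 and the cohesin acetyltransferase Esco2 at 0.63. Of 29 further kinetochore genes 7 fell, led by Cenpl (-0.95) and Ska1 (-0.90). Of 29 further spindle genes 8 fell, led by the kinesins Kifc1 (-1.42) and Kif18b (-1.003). With the experiment as a block, 3 APC/C, 6 condensin, 4 cohesion, 12 kinetochore, 14 spindle and 8 entry and MuvB genes fell. Rises with the block numbered 1 for APC/C, 3 for cohesion, 1 for spindle and 1 for entry and MuvB genes. Of all genes 23.2% fell and 19.9% rose with the block. Without scaling the medians of these lists, entry and MuvB included, lay above 0, between 0.27 and 0.63.

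Genes of the preceding step, G1/S and DNA replication, had a lower median. Of 21 tested, 12 fell and 0 rose (16 and 0 with the block), with a median of -0.62 on the scale of the 75th percentile, 0.12 without scaling and 0.39 on the spike-in scale. E2f2, a transcription factor of S phase entry, had 10.34 and 10.42 with Epo, against 12.33 and 12.42 without Epo. Its groups lay far apart, and it fell by 1.99 ± 0.12 on the log2 scale (SE; adjusted p 0.00397), a fall that also passed without scaling (-1.25) and on the spike-in scale (-0.98). The thymidine kinase gene Tk1 fell by 1.28, and lay at -0.53 without scaling and -0.27 on the spike-in scale, where it did not pass.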

How the data were processed

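Cy3-labelled RNA of 4 cultures, copied with an oligo-dT primer per the labels' protocols, was hybridised to Agilent mouse arrays. The deposited files hold a processed intensity for each of 62976 spots, corrected for background by Feature Extraction 10.1.1.1 and not scaled between arrays, per the file headers. The submitters' processing notes list limma with no version. Probe positions are on mm9, per the file headers.

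From these, log2 intensity minus each array's 75th percentile over 59305 gene spots was computed, with the mean percentile added back. Spots flagged as outliers were dropped (9 probes lost) and repeated spots averaged. Probes had to be well above background on both arrays of either group, and the brightest kept probe stood for its gene. Names were updated by RefSeq accession (26362 probes), symbol (3859) or synonym (735), 51 probes of the mitosis genes kept the name they were matched by, and 24674 others were left as filed.

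A two-sided limma test (lmFit, then eBayes; limma 3.58.1, R 4.3.3) compared the groups, with p-values adjusted by Benjamini-Hochberg over all 17555 genes, a threshold of 0.05, and 2 residual and 4.57 total degrees of freedom. Total degrees of freedom were 35110 without scaling and 11.3 on the spike-in scale. Per-probe values come from the main fit, run over all kept probes. Because the design text describes 2 independent experiments with different passages, a replicate number was taken as an experiment that pairs the samples. Deviations of same-numbered arrays correlated at 0.386 across all genes and at 0.802 over the mitosis genes. For single mitosis genes, the fit with this number as a block is given where it changes a call. For the lists of other genes, counts with the block are given where they differ. Only 2 arrays per group limit the precision. On simulated data with 100 changed genes each, 80% were recovered at a log2 change of 2 and 94% at 4, with 9 false calls. That setting differs from the data, where 2302 genes rose, 2502 fell and no mitosis gene changed by more than 1. The simulated rates therefore do not give the recovery or the false calls for the mitosis genes.

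The mitosis genes, the other lists and the tests were chosen with earlier results of these data known. Full values are given for the genes past the threshold, the 3 highest and 3 lowest changes, genes whose probes differ in sign or by over 0.5, and Cdk1, Ccnb1, Plk1, Aurkb, Cdc20, Top2a and Foxm1; the 3 brightest and 3 dimmest are named with a level. Of other lists, up to 2 rises and 2 falls are named. In 15 alternatives the scaling, background correction, filter, probe choice, block and arrays were varied, and 1 of them, spike-in scaling, was added after seeing the data.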

Additional observations from a re-analysis of the deposited data

How the results depend on the processing

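Scaling decides the direction of most changes of the mitosis genes. Without scaling 0 of the 35 mitosis genes fell and 3 rose (0 and 24 of the 111 others), with a median change of 0.49. On the scale of the spike-in controls, an alternative chosen after seeing the data, 0 fell and 24 rose (0 and 72 of the others), with a median of 0.75. Relative to the median of each array 2 fell and 2 rose (9 and 12 of the others), with a median of 0.079. Of the called falls, Ndc80, Mki67, Nusap1, Kif4, Kif2c and Incenp lay at 0.062, 0.11, 0.16, 0.18, 0.21 and 0.30 without scaling. On the spike-in scale Foxm1, Ccnf, Ndc80, Mki67, Nusap1, Kif4, Kif2c and Incenp lay at 0.053, 0.20, 0.33, 0.37, 0.43, 0.45, 0.47 and 0.56. Genes below 0 that passed as rises on that scale were Cenpe, Spc25, Aurka, Bub1, Racgap1, Cenpf and Plk1 (0.57, 0.59, 0.63, 0.64, 0.66, 0.70 and 0.75), Ccnb1, Kif23, Kif20a, Birc5, Nek2, Espl1 and Nuf2 (0.78, 0.79, 0.81, 0.81, 0.85, 0.85 and 0.87), and Cdk1, Mad2l1, Ttk, Ccnb2, Top2a, Bub1b and Hmmr (0.90, 0.93, 0.94, 0.94, 0.97, 0.97 and 0.98).

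The percentile over detected probes gave 15 falls, a median of -0.38 and 1 rise among the others. Quantile normalization gave 14 falls and a median of -0.31. Normexp background correction gave 1 rise (5 among the others) and a median of -0.15. With the replicate number as a block, 15 fell, with 47 falls and 6 rises among the others. That block raised 7 genes to a call and ended none. When dim probes were kept, limma called 0 of 36310 genes, 0 falls among the mitosis genes and 0 falls and 0 rises among the others. At an unadjusted p under 0.05, 7148 genes then passed, among them 7 mitosis genes that were lower and 0 higher; the cause was not tested for any of these settings. With 1 array left out the falls ran from 0 to 3, the others' falls from 7 to 22 and their rises from 1 to 2, and the median from -0.34 to -0.31. Keeping only probes well above background on all arrays gave 10 falls, and averaging the probes gave 6, with Incenp and Mki67 lost.

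The smallest change in size that passed the threshold was 0.43, with 2 arrays per group and 2 residual degrees of freedom.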
